A study of Mus musculus with 6 samples.

Results

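The genes described here are 57 checkpoint and DNA repair genes outside the BRCA and Fanconi group, listed by symbol under their pathways; the list was drawn up with earlier results of these data known. Of these, 55 were found among the 11644 genes measured, and Xrcc5 and Mgmt were not analysed here. Mouse MLL-ENL/NrasG12D cells, a leukemia culture that carries an MLL-ENL fusion and an activated Nras, were compared after 72 h with the PRMT5 inhibitor EPZ015666 at 5 µM or with an equal amount of its solvent, DMSO. Both groups received their treatment again on day 2, and both carry the fusion and the Nras allele, so no cells without these lesions are part of the comparison. There were 3 DMSO and 3 inhibitor libraries, which the series calls independent without saying what was repeated; the p-values therefore measure only the spread between these libraries, which may be technical. The labels do not say whether the cells are 1 clone, and bulk RNA cannot tell fewer cells of a kind from less RNA per cell.

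Cells sense stalled replication forks and broken DNA through the kinases ATR and ATM, which act through CHK1 and CHK2 to hold the cell cycle. Small base lesions are cut out by glycosylases and refilled by polymerase beta, bulky lesions by nucleotide excision repair, and replication errors by the MutS and MutL complexes. Broken ends are rejoined by Ku, DNA-PK and ligase IV, and lesions that remain during replication are passed by specialised polymerases. PRMT5, which places symmetric dimethyl groups on arginines, is known for its roles in splicing and in the response to DNA damage.

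Recovered reads ran from 11335948 to 19197912 per library. Prmt5 had 2784 ± 366 and 2508 ± 373 normalized counts in DMSO and inhibitor libraries (SD, n = 3 each; limma adjusted p = 0.316), which does not check the inhibition of the enzyme. Trp53 had 1639 ± 71.7 and 1643 ± 57.2 (adjusted p = 0.969), and Cdkn1a rose from 610 ± 143 to 2999 ± 201 (limma adjusted p = 2.30e-07). All 9 myeloid markers were measured; 5 rose and 2 fell, and their summed level was 15494 to 16704 in DMSO and 23287 to 23768 with the inhibitor. Itgam (1667 to 6314) and Csf1r (1235 to 3912) made up most of the increase in this sum, while Cebpa (1269 to 873) and Mpo (847 to 342) fell. None of 5 T cell and 5 erythroid markers was measured, and Cd79b, the only B cell marker of 5 measured, lay at 28.5 normalized counts or less. Of 4 megakaryocyte markers 2 were measured, both at low levels: Itga2b rose from 6.79 to 29.8 (limma adjusted p = 0.00145), and Gp9 had 6.67 and 16.2. The NK cell marker Klrb1c had 6.27 and 14.4, and of 6 endothelial and stromal markers 3 were measured, with Pecam1 at 3240 and 3801 and Cdh5 and Pdgfrb at 18.3 or less. Of 29 proliferation markers, 15 fell and 2 rose, with a summed level of 121080 to 144930 in DMSO and 89301 to 106818 with the inhibitor; without inhibitor library 2, 9 fell. The part of these marker shifts in the results on repair genes was not tested. Among DMSO libraries, library 2 had the lowest repair gene levels: against the other two its median log2 difference was -0.11 over these genes and -0.01 over all genes. It also stood apart in 7 stress genes, listed for that reason, whose summed level was 10250 against 4686 and 5054 in the other DMSO libraries and 5221 to 5997 with the inhibitor. Without it, 24 of the repair genes fell and 8 rose.

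Among the 55 repair and checkpoint genes, 22 fell, 8 rose and 25 did not pass the test (limma-trend, adjusted p under 0.05). Of all genes tested, 22.9% fell and 23.6% rose, or 46.5% in either direction, so 40% of these genes fell and 14.5% rose against this background. Their median log2 fold change was -0.21, against 0.00 over all genes. When a 1.5-fold minimum was added, 12 fell and 6 rose, against 9.69% and 12.4% of all genes. The libraries of the 2 groups did not overlap for 25 genes that were lower and 11 that were higher, against 27.9% and 28.2% of all genes. The pathways differed in these counts: 6 of 8 checkpoint genes fell and none rose, 3 of 6 end-joining genes rose and none fell, and in lesion bypass 2 of 5 rose and 2 fell. These differences between pathways were not tested. Of 91 other measured genes of the same pathways, 39 fell and 10 rose, with a median log2 fold change of -0.14.

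**Figure D1:**
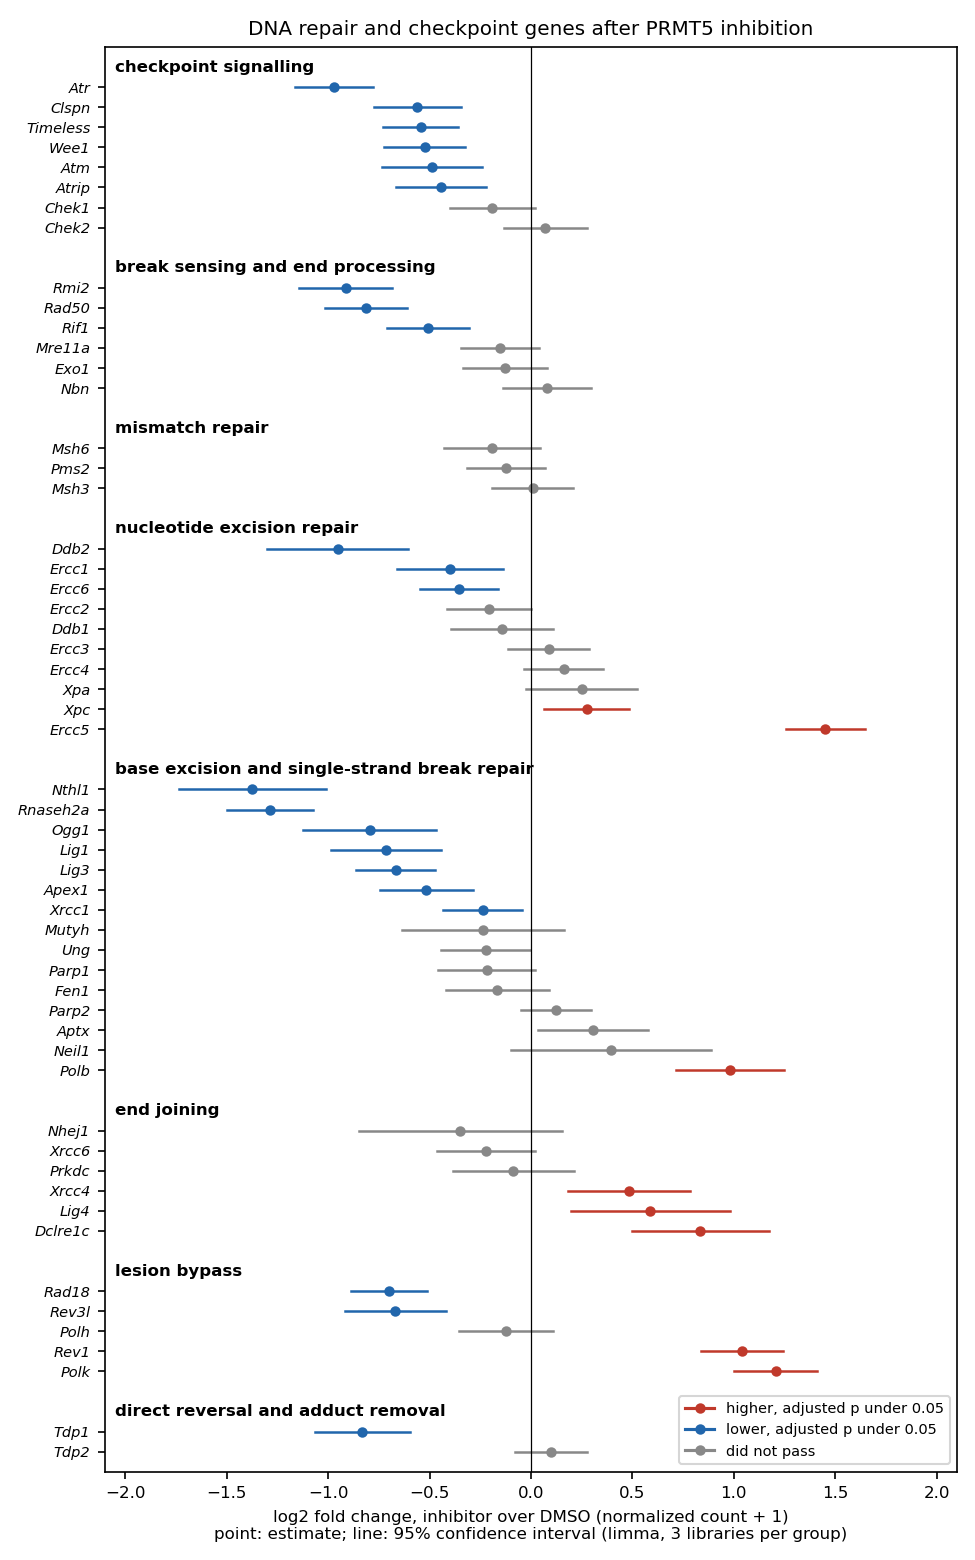
Log2 fold change of each of the 55 repair and checkpoint genes (inhibitor over DMSO, x axis, normalized count + 1), grouped by pathway, with points for the estimate and lines for the 95% confidence interval from limma over 3 libraries per group. Blue genes fell, red genes rose and grey genes did not pass; the values run from -1.37 (Nthl1) to 1.45 (Ercc5).

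Promoter sequences are shown for the members with the largest changes in each direction that met the rules for printing. These were a RefSeq entry within 200 bases of the annotated start and a long enough stretch outside exons of protein-coding genes. Rnaseh2a (log2 fold change -1.29) and Polk (1.21) have RefSeq entries but did not meet these rules. Ddb2 (-0.95), Rmi2 (-0.91) and Polb (0.98) changed more than the last printed gene of their direction but have no RefSeq entry. RefSeq's promoter table (GRCm38.p6) held 42 of the 55 genes. The windows are the 250 bases before the RefSeq start. Stretches that lie in exons of protein-coding genes are left out, and 3 falling and 3 rising genes are given. Capitals mark matches on either strand to the CCAAT box (CCAAT), the CHR element (TTTGAA) or the E-box (CACGTG), none of which overlap here. The first 3 genes fell and the last 3 rose.
Nthl1, chr17:24632432-24632537, plus strand: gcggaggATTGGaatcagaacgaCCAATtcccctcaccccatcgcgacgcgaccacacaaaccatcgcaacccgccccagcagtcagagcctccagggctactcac
Atr, chr9:95857347-95857596, plus strand: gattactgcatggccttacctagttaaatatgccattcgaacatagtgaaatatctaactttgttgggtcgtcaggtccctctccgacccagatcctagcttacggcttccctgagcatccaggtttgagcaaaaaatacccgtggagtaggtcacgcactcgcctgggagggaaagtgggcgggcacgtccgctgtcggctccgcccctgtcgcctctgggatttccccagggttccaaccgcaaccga
Tdp1, chr12:99884413-99884517, plus strand: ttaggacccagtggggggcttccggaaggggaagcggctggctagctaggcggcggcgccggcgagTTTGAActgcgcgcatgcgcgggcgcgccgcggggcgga
Ercc5, chr1:44147494-44147743, plus strand: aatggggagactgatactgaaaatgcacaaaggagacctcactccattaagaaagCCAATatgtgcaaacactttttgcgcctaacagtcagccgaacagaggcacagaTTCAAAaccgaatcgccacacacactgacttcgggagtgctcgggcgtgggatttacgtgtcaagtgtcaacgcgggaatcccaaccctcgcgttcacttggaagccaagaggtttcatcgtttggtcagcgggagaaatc
Rev1, chr1:38129667-38129916, minus strand: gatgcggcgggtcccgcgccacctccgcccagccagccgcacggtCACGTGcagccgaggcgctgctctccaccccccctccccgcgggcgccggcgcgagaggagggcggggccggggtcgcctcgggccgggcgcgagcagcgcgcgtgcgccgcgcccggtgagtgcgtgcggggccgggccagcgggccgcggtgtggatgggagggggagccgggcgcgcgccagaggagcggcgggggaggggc
Dclre1c, chr2:3423881-3424130, plus strand: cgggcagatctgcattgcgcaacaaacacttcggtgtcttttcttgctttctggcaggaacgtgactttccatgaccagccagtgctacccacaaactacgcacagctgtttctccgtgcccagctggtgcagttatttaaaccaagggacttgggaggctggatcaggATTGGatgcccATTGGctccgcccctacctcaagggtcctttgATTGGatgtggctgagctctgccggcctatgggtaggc

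The printed Atr stretch held none of these motifs, and those of Nthl1 and Dclre1c held 2 and 3 CCAAT boxes. The rest of the Nthl1 window, which runs into exons of Tsc2, is not shown, nor is the part of the Tdp1 window in exons of Efcab11. The RefSeq start of Rev1 lies 135 bases inside the gene as GENCODE bounds it, so 135 of the printed Rev1 bases lie within that gene. A CCAAT box stood in 40% of the 50 promoter windows of the repair genes (8 of 19 windows of genes that fell, 2 of 8 of genes that rose), in 35.6% of the windows of all measured genes and in 33.8% of all promoters in the RefSeq table. An E2F motif (TTTCCCGC, TTTGGCGC, TTTCGCGC or TTTGCCGC) stood in 4 of the 50 windows, those of Chek2, Msh3, Xrcc6 and Nthl1, against 3.30% of the windows of measured genes and 1.86% of all. The E-box was found in 7 of 50 windows (14%, against 8.42% and 6.02%) and the CHR element in 3 (6%, against 10.5% and 16.0%). The full p53 site with no spacer was in none of the 50 windows and in 3 of 32851 promoters. These counts describe letters in a short window, not binding.

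Among the listed members, checkpoint signalling had the largest share of falls (75%, 6 of 8 genes). Among the other genes of the same pathways it did not, as 56.5% of its genes fell. Shares there were 60% in break sensing and in lesion bypass, and 58.3% in base excision repair. They were smaller in mismatch repair (33.3%), end joining (28.6%), nucleotide excision repair (15%) and direct reversal and adduct removal (0%). Atr (mm10, chromosome 9, 95857597 to 95951781, plus strand), the kinase that answers stalled forks, had 1998, 2020 and 2252 normalized counts in the DMSO libraries and 978, 1088 and 1139 in the inhibitor libraries. Every inhibitor library lay far below every DMSO library, and the log2 fold change was -0.97 ± 0.09 (SE; limma adjusted p = 6.63e-06). Its partner Atrip, which brings ATR to single-stranded DNA, fell from 538 ± 39.1 to 395 ± 29.8 (SD, n = 3 each). Timeless, of the fork protection complex, had 2087, 1922 and 1930 in DMSO and 1473, 1263 and 1345 with the inhibitor (log2 fold change -0.54 ± 0.08, limma adjusted p = 3.23e-04), with no overlap. Claspin, the adaptor between ATR and CHK1 encoded by Clspn, fell from 1979 ± 226 to 1337 ± 92.9.

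Wee1, the kinase that holds CDK1 inactive, had 1124, 983 and 1078 in DMSO and 799, 731 and 686 with the inhibitor (log2 fold change -0.52 ± 0.09, limma adjusted p = 6.89e-04). Atm, the kinase of double-strand breaks, had 1984, 1858 and 2559 against 1417, 1598 and 1510 (log2 fold change -0.49 ± 0.11, limma adjusted p = 0.00412); DMSO library 3 was its highest value, and the groups did not overlap. The 2 effector kinases downstream did not pass. Chek1 had 894, 769 and 790 in DMSO and 730, 769 and 651 with the inhibitor, with a log2 fold change of -0.19 (95% interval -0.40 to 0.02, limma adjusted p = 0.126). Chek2 had 718, 585 and 637 against 680, 678 and 674, the inhibitor values lying inside the DMSO range, and the interval of its log2 fold change ran from -0.13 to 0.28.

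Of 23 other checkpoint genes, 13 fell (56.5%) and none rose, against 22.9% and 23.6% of all genes. Cdc25b, a phosphatase that opens mitosis, fell from 733 ± 44.8 to 355 ± 28.6, and Rfc2, a subunit of the clamp loader shared with the checkpoint, from 2524 ± 133 to 1537 ± 117 (SD, n = 3 each). The genes of the checkpoint clamp, Rad1 and Hus1, also fell (log2 fold changes -0.39 and -0.38), while the third, Rad9a, had means of 579 and 592; these 3 genes were picked after their values were seen. All 6 checkpoint calls held under every other test and scaling and without each library in turn, although only Atr fell by at least 1.5-fold.

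**Figure D2:**
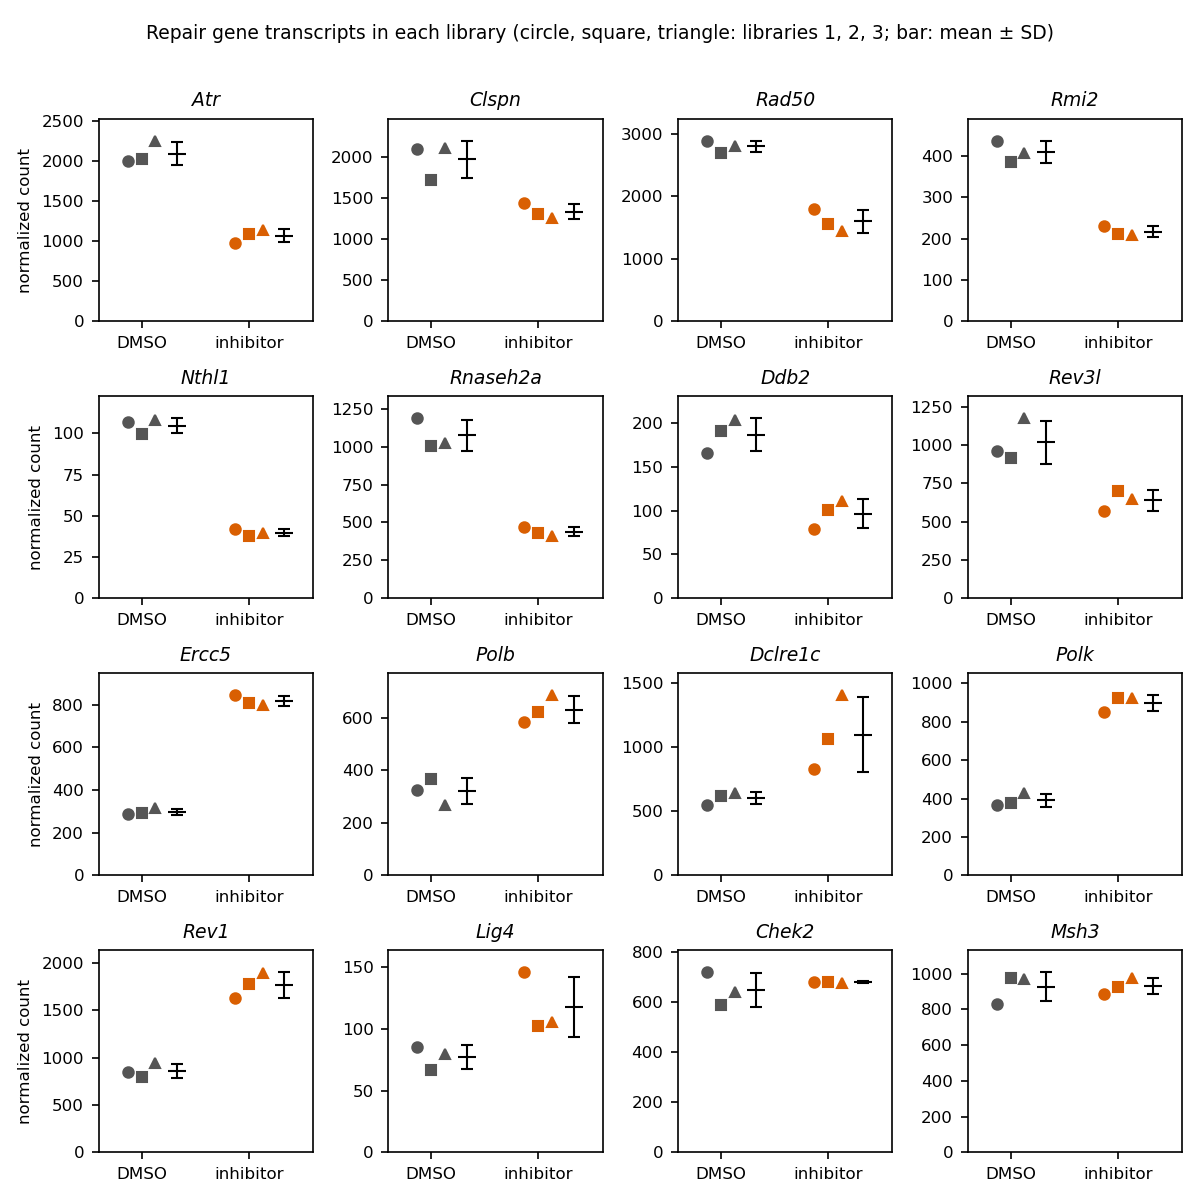
Normalized counts (y axis, from 0) of 16 repair genes in each DMSO (grey) and inhibitor (orange) library, with circle, square and triangle for libraries 1, 2 and 3 and a bar for the mean ± SD. The panels from Atr to Rev3l are lower in every inhibitor library, those from Ercc5 to Lig4 are higher in every one, and Chek2 and Msh3 overlap.

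The MRN complex, which senses double-strand breaks, was not uniform. Rad50 (chromosome 11, 53649519 to 53707319, minus strand), its coiled-coil ATPase, had 2881, 2697 and 2809 in DMSO and 1796, 1561 and 1435 with the inhibitor, a log2 fold change of -0.81 ± 0.09 (SE; limma adjusted p = 3.35e-05). The nuclease subunit Mre11a had means of 1276 and 1150 (95% interval of the log2 fold change -0.35 to 0.04), and the adaptor subunit Nbn 764 and 806 (-0.14 to 0.30). Per kb of exon, the DMSO level of Rad50 was 543 normalized counts against 221 for Mre11a and 301 for Nbn; with the inhibitor these levels were 310, 200 and 318. Rmi2, of the complex that dissolves recombination intermediates, had 438, 385 and 408 in DMSO and 232, 211 and 209 with the inhibitor (log2 fold change -0.91 ± 0.11, limma adjusted p = 3.91e-05).

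Rif1, which guards broken ends against resection, had 4602, 4613 and 5057 in DMSO and 3507, 3567 and 2983 with the inhibitor (log2 fold change -0.51 ± 0.09, limma adjusted p = 8.95e-04). The exonuclease Exo1 did not pass (1370 ± 145 and 1250 ± 78.7). So 3 of 6 genes fell (50%) and none rose, against 22.9% and 23.6% of all genes. Of 10 other genes of end processing, 6 fell (60%) and none rose. The smallest adjusted p was in the helicase gene Wrn (1232 ± 89.8 to 742 ± 66.7) and the nuclease gene Mus81 (402 ± 1.28 to 309 ± 20.5).

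None of the 3 mismatch repair members passed, by limma (3 of 3 had an unadjusted p above 0.05) or by edgeR or DESeq2. Msh6, which reads single mismatches, had means of 3673 ± 349 and 3219 ± 422, with a log2 fold change of -0.19 (95% interval -0.43 to 0.04). Msh3, which reads larger loops, had 927 ± 82.4 and 930 ± 43.7 (-0.19 to 0.21), and Pms2, the endonuclease of MutL, 810 ± 68.9 and 742 ± 10.6 (-0.32 to 0.07). All 3 intervals lie above the fall of Atr.

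In nucleotide excision repair 3 of 10 genes were lower (30%) and 2 higher (20%), near the 22.9% and 23.6% of all genes. Ercc5 (chromosome 1, 44147744 to 44181260, plus strand) encodes XPG, the nuclease that cuts on the 3′ side of a bulky lesion. It had 288, 292 and 315 normalized counts in DMSO and 846, 807 and 800 with the inhibitor, the largest rise of all 55 genes (log2 fold change 1.45 ± 0.09 SE, limma adjusted p = 3.52e-07). Its counterpart on the 5′ side, the XPF-ERCC1 nuclease, is encoded by Ercc4 and Ercc1. Ercc4 had 528 ± 22.7 and 590 ± 32.2 and did not pass (limma adjusted p = 0.161), although every inhibitor library lay above every DMSO library, and Ercc1 fell from 322 ± 22.2 to 244 ± 29.5. The call on Ercc1 was lost without inhibitor library 1 (limma adjusted p = 0.0588) or 2 (0.0535).

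The damage sensors split as well. Ddb2, the subunit that finds ultraviolet lesions, had 166, 191 and 204 in DMSO and 78.7, 101 and 111 with the inhibitor (log2 fold change -0.95 ± 0.16, limma adjusted p = 5.15e-04). Its exons overlap those of Acp2 on the other strand over 26.7% of their length, and Acp2 rose, from 188 to 268. Ddb1, the abundant scaffold of the same ligase, had 11227 ± 788 and 10222 ± 1447. Xpc, the sensor of distorted DNA, had 1321, 1091 and 1214 in DMSO and 1582, 1470 and 1330 with the inhibitor (log2 fold change 0.27 ± 0.10, limma adjusted p = 0.0351), and its lowest inhibitor value stood just above its highest DMSO value. Leaving out 1 library ended this call in 4 cases, with adjusted p-values by limma of 0.112 (DMSO 2), 0.0770 (DMSO 3), 0.112 (inhibitor 1) and 0.104 (inhibitor 2).

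Ercc6, which starts repair at stalled RNA polymerase, had 947, 1017 and 1119 in DMSO and 770, 812 and 824 with the inhibitor (log2 fold change -0.35 ± 0.09, limma adjusted p = 0.00626). The TFIIH helicase genes Ercc2 (1090 and 947) and Ercc3 (732 and 777) and the scaffold gene Xpa (175 and 209) did not pass. Of 20 other excision repair genes, 6 rose (30%) and 3 fell (15%), against 23.6% and 22.9% of all genes. Rbx1, the ring subunit of the DDB1 ligase, rose from 1246 ± 85.4 to 1712 ± 76.4 (SD, n = 3 each).

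In base excision and single-strand break repair, 7 of 15 genes fell (46.7%) and 1 rose (6.67%), against 22.9% and 23.6% of all genes. Rnaseh2a (chromosome 8, 84956610 to 84969767, minus strand), the catalytic subunit of the enzyme that removes ribonucleotides from DNA, had 1190, 1006 and 1026 in DMSO and 472, 432 and 413 with the inhibitor (log2 fold change -1.29 ± 0.10 SE, limma adjusted p = 1.71e-06). Its other two subunits fell too. Rnaseh2c went from 656 ± 82.8 to 238 ± 26.3, and Rnaseh2b, named after its value was seen, from 721 ± 83.1 to 589 ± 31.9. The fold differed between the subunits, at 2.45 and 2.76 for Rnaseh2a and Rnaseh2c and 1.22 for Rnaseh2b; a difference between them was not tested.

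Among the glycosylases, which remove damaged bases, Nthl1 and Ogg1, both for oxidized bases, fell. Nthl1 (chromosome 17, 24632680 to 24638837, plus strand) had 107, 99.3 and 108 in DMSO and 41.9, 37.8 and 39.8 with the inhibitor, the largest fall of the 55 genes (log2 fold change -1.37 ± 0.17, limma adjusted p = 5.24e-05). Ogg1 fell from 168 ± 23.9 to 96.1 ± 8.15. Ung, for uracil (665 and 569), Mutyh (123 and 106) and the low-level Neil1 (33.6 and 45.3) did not pass. In the wider list, Neil3 fell from 552 ± 95.4 to 238 ± 33.6.

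The steps after the glycosylases went apart. Apex1, the nuclease that cuts at an abasic site, fell from 2530 ± 182 to 1778 ± 245; exons of Pip4p1, a gene not analysed here, lie opposite 70.8% of its exon bases. Polb, the polymerase that fills the gap, had 326, 368 and 269 in DMSO and 584, 621 and 687 with the inhibitor, a rise with no overlap between groups (log2 fold change 0.98 ± 0.12, limma adjusted p = 6.81e-05). The ligases that seal the nick fell: Lig1 from 2018 ± 308 to 1226 ± 173, and Lig3 from 1396 ± 87.9 to 879 ± 68.5. Xrcc1, the scaffold that holds ligase III, was at the edge, with 928 ± 30.8 and 789 ± 72.6 (limma adjusted p = 0.0467), and it did not pass with DESeq2 (adjusted p = 0.0761). By limma the adjusted p of Xrcc1 was 0.133 and 0.114 when DMSO library 1 or 3 was left out, and 0.155 and 0.120 when inhibitor library 2 or 3 was.

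Parp1, the sensor of strand breaks, had 9399, 8241 and 8365 in DMSO and 8638, 7157 and 6653 with the inhibitor (log2 fold change -0.22, 95% interval -0.46 to 0.02, limma adjusted p = 0.124). The groups overlapped, and its level per kb remained second of the 55 genes in both. Parp2 (994 and 1083), Fen1, the flap nuclease (3819 and 3401), and Aptx, which frees blocked ends (235 and 292), did not pass. Of 12 other measured genes of this pathway, 7 fell (58.3%) and 1 rose (8.33%), against 22.9% and 23.6% of all genes.

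In end joining 3 of 6 measured genes rose (50%) and none fell, against 23.6% and 22.9% of all genes. The count of rises was 2 without DMSO library 3, inhibitor library 1 or inhibitor library 2, and 2 with a 1.5-fold minimum. Dclre1c (chromosome 2, 3424131 to 3464130, plus strand), which encodes the end-trimming nuclease Artemis, had 552, 618 and 640 in DMSO and 828, 1061 and 1410 with the inhibitor (log2 fold change 0.83 ± 0.16 SE, limma adjusted p = 0.00106). Its inhibitor libraries spread widely, with an SD of 293, and all lay above DMSO. Lig4, the ligase of this pathway, had 85.6, 67.0 and 79.5 against 146, 102 and 105 (log2 fold change 0.59 ± 0.18, limma adjusted p = 0.0188), and Xrcc4, its obligate partner, had 125, 125 and 101 against 162, 168 and 159 (0.48 ± 0.14, limma adjusted p = 0.0130).

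The calls on these partners rest on few libraries. Lig4 did not pass without inhibitor library 1 (limma adjusted p = 0.0794), nor Xrcc4 without DMSO library 3 (0.0636) or inhibitor library 2 (0.0523). None of the other 3 genes passed. Prkdc, the catalytic subunit of DNA-PK, had 1402, 1285 and 1833 in DMSO and 1182, 1538 and 1517 with the inhibitor (95% interval of the log2 fold change -0.38 to 0.21), and the groups overlapped. Xrcc6, the Ku70 subunit of Ku, had 1450, 1166 and 1348 against 1302, 1092 and 1015 (log2 fold change -0.22, limma adjusted p = 0.122). It fell past the threshold without DMSO library 2 (limma adjusted p = 0.0329) or inhibitor library 1 (0.0318). Nhej1, the XLF factor, had 65.7 ± 14.2 and 51.4 ± 11.5. Of 7 other measured end-joining genes, 1 rose (14.3%) and 2 fell (28.6%), against 23.6% and 22.9% of all genes. The 2 that fell were Aplf (271 ± 8.30 to 177 ± 15.7) and Mad2l2 (181 ± 16.5 to 125 ± 14.5), which also serves lesion bypass.

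In lesion bypass, the polymerases moved in opposite directions. Polk (chromosome 13, 96480690 to 96542579, minus strand), the polymerase that passes bulky adducts, had 368, 375 and 427 in DMSO and 852, 923 and 922 with the inhibitor (log2 fold change 1.21 ± 0.09 SE, limma adjusted p = 2.12e-06). Rev1, the scaffold on which bypass polymerases change places, had 845, 793 and 943 against 1628, 1779 and 1898 (1.04 ± 0.09, limma adjusted p = 5.70e-06). The exons of Eif5b lie opposite 29.1% of the exon bases of Rev1, and Eif5b had 1031 ± 84.1 and 960 ± 119. Polk and Rev1 were higher in every inhibitor library than in any DMSO library.

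By contrast Rad18, the ligase that marks PCNA to call these polymerases, fell, from 755, 731 and 766 to 480, 436 and 470 (log2 fold change -0.70 ± 0.09, limma adjusted p = 6.30e-05). Rev3l, the catalytic subunit of the extending polymerase zeta, fell from 1018 ± 140 to 639 ± 68.0. Polh, which passes ultraviolet dimers, did not pass (813 ± 47.2 and 750 ± 99.0). Of 10 other genes, 6 fell (60%) and 1 rose (10%), against 22.9% and 23.6% of all genes. Hltf, another ligase of PCNA, fell from 1522 ± 57.8 to 1117 ± 62.6, and Usp1, which removes that mark, from 4057 ± 119 to 2969 ± 256.

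Of the 2 measured genes that remove protein or chemical adducts, Tdp1, for topoisomerase I ends, had 487, 423 and 484 in DMSO and 239, 274 and 269 with the inhibitor (log2 fold change -0.83 ± 0.11 SE, limma adjusted p = 8.32e-05). Tdp2, for topoisomerase II ends, had 946 ± 30.8 and 1012 ± 54.7 (adjusted p = 0.351). Among the 3 demethylase genes Alkbh1, Alkbh2 and Alkbh3, Alkbh1 rose from 619 ± 36.0 to 770 ± 113 (limma adjusted p = 0.0392), a call lost in 6 of 15 alternatives.

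**Figure D3:**
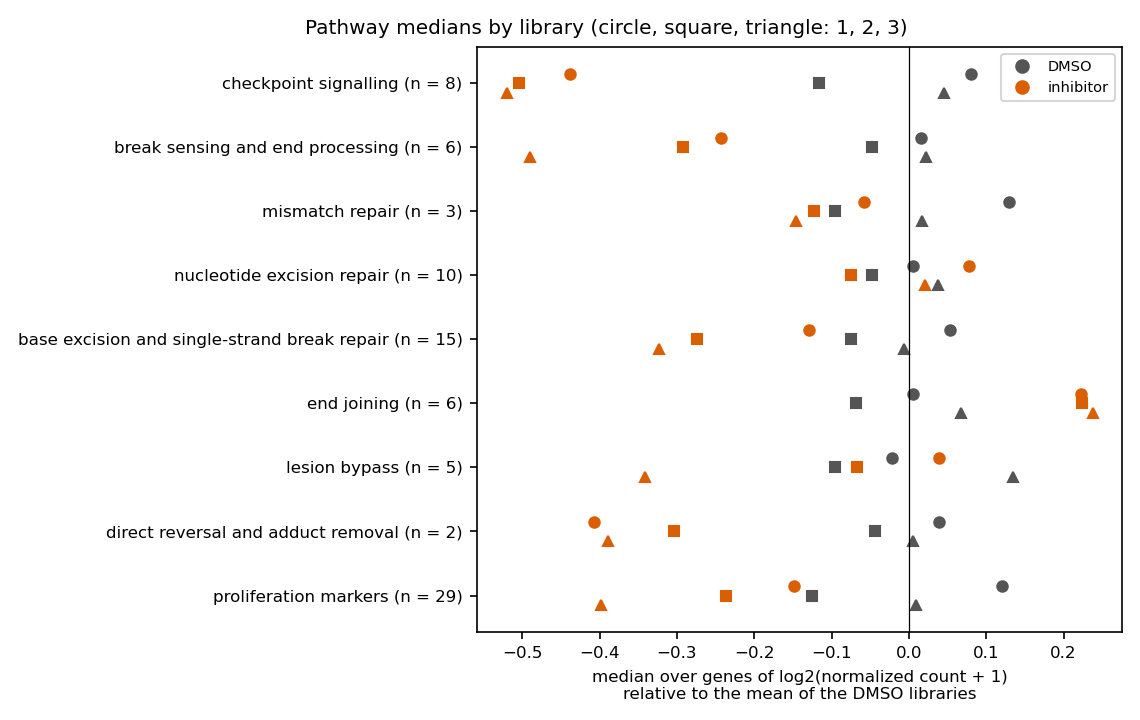
Median over the genes of each pathway of log2(normalized count + 1) relative to the mean of the DMSO libraries (x axis), for each DMSO (grey) and inhibitor (orange) library, with circle, square and triangle for libraries 1, 2 and 3. Checkpoint medians lie between -0.52 and -0.44 in the inhibitor libraries and end-joining medians between 0.22 and 0.24. Those of nucleotide excision repair lie on both sides of 0.

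The pathway medians by library set these changes side by side. In the inhibitor libraries the checkpoint median was -0.44, -0.50 and -0.52 relative to DMSO, and that of the proliferation markers -0.15, -0.24 and -0.40. In DMSO library 2 both stood low, at -0.12 for each, but every pathway median was below 0 in that library. Mismatch repair stood at -0.10 there and end joining at -0.07. Over break sensing the inhibitor medians were -0.24, -0.29 and -0.49, and over base excision repair -0.13, -0.27 and -0.32, in both cases lowest in library 3, as with the proliferation markers. The end-joining median was 0.22, 0.22 and 0.24. Medians of so few genes hide the split inside a pathway, as in lesion bypass and end joining. The log2 fold changes of the end-joining genes ran from -0.35 to 0.83.

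**Figure D4:**
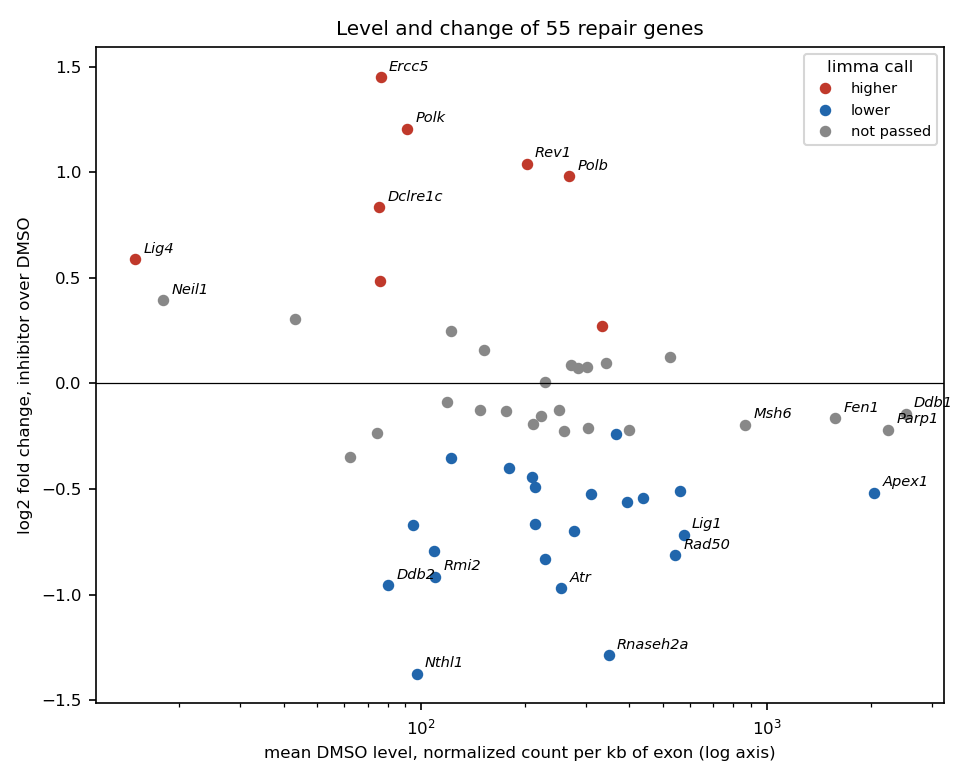
Mean DMSO level per kb of exon (x axis, log scale) against the log2 fold change (y axis) of the 55 genes, coloured by limma call. The genes that rose had DMSO levels from 14.9 (Lig4) to 333 (Xpc) normalized counts per kb, and none of the 4 most abundant genes rose.

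Per kb of exon the genes spanned a wide range, from 14.9 normalized counts for Lig4 and 18.0 for Neil1 to 2518 for Ddb1 in DMSO. The 5 highest were Ddb1, Parp1, Apex1, Fen1 and Msh6, in the same order in both groups, and of these Apex1 fell. Polb moved from rank 23 to rank 7 and Rev1 from rank 34 to rank 8, while Rnaseh2a went from rank 14 to rank 36. In gene structure, the median number of exons was 15 in genes that rose and 17.5 in those that fell. Median transcript lengths were 4066 and 3296.5 bases, and medians of transcript GC content 44.1% and 49.98%. Over all genes with a gene model, those that rose and fell had median lengths of 2741.5 and 3370 bases. Their GC medians were 49.3% and 51.3%. These differences were not tested. Across the 55 genes the correlation of the log2 fold change with GC content was r = -0.28 and with exon number r = -0.10, against -0.06 and -0.05 across 11491 genes, given as a description, since the genes share the same libraries.

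Of the 55, 19 have a protein-coding gene on the other strand that starts within 1000 bases upstream or overlaps the start by up to 300, and 17 of these neighbours were measured. Of these neighbours 7 passed (41.2%, against 46.5% of all genes). In 5 pairs (29.4%) both genes passed, 4 of them in the same direction. Over all 677 measured pairs of this kind, both passed in 20.4%, and 92 of those 138 pairs moved in the same direction. The single pairs are given as a description. Tdp1 and Efcab11, whose starts lie 78 bases apart, both fell, Efcab11 from 143 to 51.3 (limma adjusted p = 6.40e-05). Apex1 and Osgep fell, Xpc and Lsm3 rose, and Polk rose with Col4a3bp, though by log2 fold changes of 1.21 and 0.28. Rnaseh2a fell while Prdx2 rose (1835 to 2391). Nthl1 fell beside Tsc2, whose start lies 50 bases away and which had 1137 and 1304 (limma adjusted p = 0.0504), and Lig4 rose beside Abhd13 (822 and 796).

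**Figure D5:**
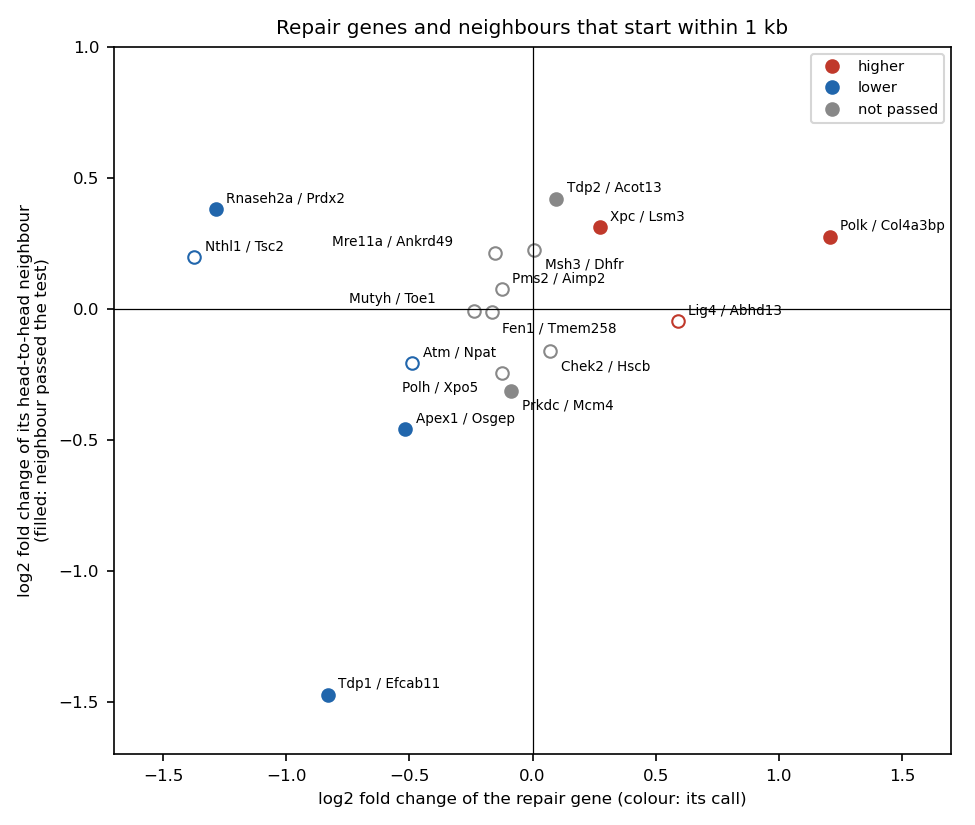
Log2 fold change of 17 repair genes (x axis, coloured by call) and of the neighbouring gene that starts head to head with each (y axis, filled where the neighbour passed). Tdp1 and Efcab11 lie low on both axes, and Nthl1 and Rnaseh2a lie far left with neighbours at 0.20 and 0.38.

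Exons of 16 of the 55 genes overlap those of another measured gene, in each case on the other strand, and the counting is not stated to use strand. Reads of such pairs cannot be told apart without it. Besides Ddb2, Apex1 and Rev1, the largest shares were in Fen1 (78.8% by the antisense gene Gm10143, which has no measured level here) and Lig3 (27.9% by Rffl, which fell from 874 to 703).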

How the data were processed

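The libraries were poly-A selected and made with a stranded mRNA kit, per the labels' protocols. The authors deposited normalized counts, a signal per gene: as read from the values, gene read counts divided by 1 size factor per library. Every value was a whole multiple of 1 step (tolerance 1e-06), so whole reads were recovered for 100% of values. Build mm10 and the tools HTSeq 0.6.0, TopHat2 2.0.10, DESeq 1.16.0 and CASAVA 1.8.2 are named, with no roles, in the submitters' processing notes; the annotation and strand setting used in counting are not stated there. The highest library of every gene holds 10 reads or more.

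The test was limma's trend method (R 4.3.3, limma 3.58.1), inhibitor against DMSO, fitted to all 11644 genes as log2 of the normalized count + 1 with no replicate block; p-values are from both sides, adjusted by Benjamini-Hochberg, with calls under 0.05. edgeR 4.0.16 and DESeq2 1.42.0 on the recovered reads were alternatives. The fitting step was tested on simulated data with far fewer changed genes than were called here, which does not check these calls. Within groups the chi-square per degree of freedom between libraries was 9.43 to 20.7, so no library was counted as a copy. Same-numbered libraries were not taken as pairs, since the number is not stated to mark a shared culture. The correlations of their deviations were 0.17, 0.05 and 0.21, against -0.159 to -0.003 between libraries of different number. The members, gene lists and rules were chosen with earlier results of these data known. Values in every library are given for the members past the threshold with the smallest adjusted p (up to 3 in each pathway) and for 10 chosen members (Atm, Chek1, Chek2, Parp1, Prkdc, Xrcc6, Ddb2, Xpc and Polk, and Xrcc5, which was not analysed here); of the other pathway genes, up to 2 per list are named, those with the smallest adjusted p past the threshold, and Prmt5, Trp53 and Cdkn1a; some of these are not reported here. Gene models are GENCODE mouse release M21 (mm10) and matched all 55 genes and 98.7% of the table; promoter sequences are RefSeq's on GRCm38.p6, the same assembly.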

Additional observations from a re-analysis of the deposited data

How the results depend on the processing

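Of 8 repair genes that rose and 22 that fell, 5 and 20 kept their call under every other test, scaling, pseudocount and filter that kept the gene, with the replicate block and without each library; Xpc, Xrcc4, Lig4, Ercc1 and Xrcc1 did not, and no call changed direction. Over other scalings, pseudocounts, tests and a minimum mean of 100, 7 to 8 rose and 21 to 22 fell. Requiring 1.5-fold left 1445 higher and 1128 lower genes of all; 12 repair genes lower; 1 and 11 other pathway genes; 1 and 4 proliferation markers; 1 checkpoint gene lower; and 1 higher and 1 lower in nucleotide excision repair. With each library left out, 1 to 2 proliferation markers were higher and 9 to 18 lower, 1 to 2 genes of nucleotide excision repair were higher, 1 to 2 of base excision repair were higher, and 0 to 1 of end joining were lower. The cause was not tested. With the replicate block, 2 base excision genes were higher (Polb and Aptx, limma adjusted p = 0.0364 for the latter) and 1 end-joining gene lower (Xrcc6, 0.0458); the block changed no other call on the 55 genes. Each library correlated best with its own number in the other group, a hint from the data and not from the design. Reads per library limit the precision of low genes such as Neil1 and Nhej1.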
